A study of Mus musculus with 2 samples.

Results

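The cells described here are the vascular endothelial cells of the pharyngeal apparatus and heart of mouse embryos at E9.5, 458 of the 16780 cells kept from 2 single-cell RNA libraries. They were chosen by their own counts of unique molecular identifiers (UMIs, each one a captured RNA molecule). A cell had to show UMIs of at least 4 of 8 endothelial genes (Cdh5, Pecam1, Kdr, Cldn5, Emcn, Tie1, Egfl7 and Plvap), at least 10 UMIs of the 8 in sum, and fewer than 2 UMIs of Npr3 plus Nfatc1, a pair of genes of the endocardium. The library labelled Ctrl held 175 such cells and the library labelled cKO held 283. The same gate with 2 or more Npr3 plus Nfatc1 UMIs gave 195 and 133 cells, which are called endocardial below by that rule alone.

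Ctrl embryos carried Mesp1Cre and one Rosa26-GFPflox allele (Mesp1Cre;Rosa26-GFPflox/+), and cKO embryos carried both of these and 2 Tbx1 alleles flanked by loxP sites (Mesp1Cre;Rosa26-GFPflox/+;Tbx1flox/flox), all on Swiss Webster. Mesp1Cre acts in the early mesoderm, so GFP marks its descendants, and both libraries hold only sorted GFP-positive, DAPI-negative cells. The study's methods give a pair of embryos per library and a slightly later somite stage for cKO. With 1 library per genotype there is no replicate, no test was made, and genotype, stage and library cannot be told apart. Cells with Xist UMIs and no Y-linked UMI (Xist-only) and cells with the reverse (Y-only) were summed apart. They show how far a difference is shared by female and male cells of a pool, but they come from the same libraries and are not replicates. With a pair of embryos per library, the female and the male cells of a pool may each come from a single embryo, so sex and embryo cannot be told apart wherever values are given by sex.

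Endothelial cells line every vessel. They arise from mesodermal progenitors under the ETS factor Etv2 with the LIM-domain protein Lmo2 and the bHLH factor Tal1, and they need the VEGF receptor Kdr. Plexus cells then take an arterial fate, with Notch signalling, Sox17 and the ligand Efnb2, or a venous fate, with the nuclear receptor Nr2f2 and the receptor Ephb4. At this stage the pharyngeal arch arteries, the dorsal aortae and the cardinal veins are being remodelled. Loss of Tbx1, a T-box factor of the pharyngeal mesoderm, is known for defects of the arch arteries.

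Endothelial genes are known for ETS sites, with a GGAA core, near their start sites. Promoters of 2 genes of the gate, Egfl7 and Emcn, and of the VEGF receptor Flt1, one of the 3 genes that differed most between the libraries among the 20 other endothelial genes described below, are printed as examples, since ETS factors recur below. Each is the 250 bases before an annotated start (RefSeq, GRCm38.p6), 5′ to 3′ on the strand of the gene. Capitals mark every match of CGGAAG or AGGAAG on either strand. The matches describe letters only and were not tested for binding.
Egfl7, chr2:26580833-26581082, plus strand: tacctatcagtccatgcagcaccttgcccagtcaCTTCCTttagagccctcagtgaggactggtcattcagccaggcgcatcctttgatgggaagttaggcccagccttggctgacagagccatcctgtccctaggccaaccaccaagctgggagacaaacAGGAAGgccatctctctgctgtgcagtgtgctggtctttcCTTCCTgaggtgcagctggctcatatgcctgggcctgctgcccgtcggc
Emcn, chr3:137340828-137341077, plus strand: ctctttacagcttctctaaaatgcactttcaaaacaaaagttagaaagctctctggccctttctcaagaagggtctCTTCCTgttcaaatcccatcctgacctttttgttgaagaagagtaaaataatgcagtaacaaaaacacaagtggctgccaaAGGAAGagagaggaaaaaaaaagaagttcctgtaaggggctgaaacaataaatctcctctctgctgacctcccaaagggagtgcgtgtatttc
Flt1, chr5:147726012-147726261, minus strand: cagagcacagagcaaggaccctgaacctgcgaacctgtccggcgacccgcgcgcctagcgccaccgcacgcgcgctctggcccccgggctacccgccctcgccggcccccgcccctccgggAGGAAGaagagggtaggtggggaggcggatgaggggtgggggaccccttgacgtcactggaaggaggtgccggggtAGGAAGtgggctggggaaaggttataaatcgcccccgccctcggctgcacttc
The Egfl7 promoter, the most upstream of the 3 promoters of this gene in the table, holds 3 matches, and those of Emcn and Flt1 hold 2 each. The same window held at least 1 match in 4 of 7 promoters of the gate genes (5 of 8 genes are in the table) and in 7 of 12 promoters of a list of 20 other endothelial genes (9 of 20 genes). The share over all 32851 promoters was 39.2%, and the promoters of these lists are too few for a comparison.

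The gate was checked against genes that it did not use. Sums of UMIs over the vascular cells of a library were divided by their total, 3377140 UMIs in Ctrl and 5351200 in cKO, and given as UMIs per 1000000 (CPM). The 20 other endothelial genes together reached 3296 and 2404 CPM in vascular cells and 3044 and 2331 CPM in endocardial cells. In the kept cells outside the gate they reached 86.3 and 73.9 CPM. The cells were thus endothelial in both libraries, but this sum does not set vascular apart from endocardial cells. Esam, a junction protein, was at 133 and 106 CPM in vascular cells against 0.695 and 0.369 CPM outside the gate. The endocardial factor Tbx20 was at 12.7 and 13.1 CPM, and Nfatc1, used by the gate, at 6.81 and 6.91 CPM. The gate does not separate the 2 kinds sharply, since 34.3% (Ctrl) and 32.5% (cKO) of vascular cells had exactly 1 Npr3 or Nfatc1 UMI and 46 and 56 of the endocardial cells had exactly 2. The lower bound on UMIs matters little, with 2 and 9 vascular cells at 10 or 11 marker UMIs and 3 and 9 cells with 4 or more markers left out at 8 or 9. The bound of 4 genes left out more, 65 cells in Ctrl and 29 in cKO with 10 or more marker UMIs. The part of this bound in the shares was not tested. A vascular cell held between 10 and 113 marker UMIs in Ctrl (median 47) and between 10 and 100 in cKO (median 37).

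RNA of other cell types was also counted in these cells. At least 10 UMIs of a mesenchyme list were found in 22 (Ctrl) and 39 (cKO) vascular cells, and at least 20 UMIs of a cardiomyocyte list in 8 and 15. Those with mesenchyme UMIs were deep, at medians of 30117 and 32935 UMIs against 16367 and 14845 in the other vascular cells, and 27.3% and 48.7% of them held both 2 Xist and 2 Y-linked UMIs. Counting any of these signs, 14.9% and 19.1% of vascular cells were mixed, and results were repeated without them. Haemoglobin RNA differed far more: at least 1 haemoglobin UMI was seen in 1.71% of vascular cells in Ctrl and in 88.3% in cKO, close to the 1.24% and 89.4% of all kept cells. The median cell held 0 and 3, and the sum was 2.96 and 2586 CPM, with 2 vascular cells of cKO above 100 haemoglobin UMIs. The cardiomyocyte list summed to 561 and 912 CPM and the mesenchyme list to 242 and 293 CPM. Lists for the myeloid, neural crest, epithelial and epicardial lineages summed to at most 7.11, 6.51, 36.4 and 31.1 CPM in either library. The libraries shared 15 cell barcodes, 0 of them among vascular cells.

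Tbx1, the targeted gene, went against the label. It stood at 10.7 CPM in vascular cells of the library labelled Ctrl (36 UMIs) and at 15.9 CPM in the library labelled cKO (85 UMIs). In Xist-only and Y-only cells it was at 8.53 and 8.78 CPM in Ctrl and at 13.8 and 12.3 CPM in cKO. Outside the gate the values were 28.0 and 45.6 CPM. A 3′ tag outside the deleted part of the gene does not report the deletion, and which part is deleted is not known from these files. The difference within vascular cells was not stable, with a log2 ratio of 0.42 that became −0.11 without the mixed cells and −0.44 without the cells of highest doublet score. Each library is therefore named by its label.

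Vascular cells made up 2.50% of kept cells in Ctrl (95% exact binomial interval 2.14 to 2.89) and 2.90% in cKO (2.57 to 3.25). These intervals, like all others given here, cover counting error only. The difference of 0.40 percentage points had an interval of −0.11 to 0.90 and was within counting error. It did not have one direction in both sexes: among Xist-only cells the shares were 2.57% and 2.37%, and among Y-only cells 2.31% and 3.34%, a difference of 1.02 points (0.13 to 1.92). Endocardial cells differed more, at 2.78% of kept cells in Ctrl (2.41 to 3.20) and 1.36% in cKO (1.14 to 1.61). Endocardial shares were lower in cKO in Xist-only cells (2.17% and 1.24%) and in Y-only cells (3.20% and 1.46%). Vascular cells were 47.3% of both endothelial kinds in Ctrl and 68.0% in cKO. This share rests on a fixed count of Npr3 plus Nfatc1 UMIs: 46 of the 195 endocardial cells in Ctrl and 56 of the 133 in cKO held exactly 2, and Npr3 was at 209.6 and 119.6 CPM in endocardial cells, with medians of 18689 and 15600 UMIs per cell. The part of depth, of the limit, of dissection and of dissociation in these shares was not tested.

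Between the libraries, vascular cells differed by at least 2-fold at few genes, and endothelial genes stood lower in the library labelled cKO, mostly by less than 2-fold. Ratios were taken as log2 of CPM plus 5, cKO over Ctrl, so negative values are lower in cKO. Of 3036 genes that reached 50 CPM and 30 UMIs in one library or both, 15 were at least 2-fold higher in cKO (0.494%) and 14 at least 2-fold lower (0.461%). Both counts, and the balance between them, moved under other settings, with the values given in the last section. Over the 9697 genes with at least 30 UMIs the median was −0.08 and 60.3% lay below 0, the background for the lists that follow. Folds with intervals are plain ratios of CPM without the added 5. The lists share members, and the list counts are descriptions without a test. Both cKO values, Xist-only and Y-only, lay below both Ctrl values for 34.3% of these genes and above both for 19% of them.

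Of the 20 other endothelial genes 19 were lower in cKO, with a median log2 ratio of −0.49, and both cKO values lay below both Ctrl values for 12. The median was −0.33 in Xist-only and −0.46 in Y-only cells. Flt1, the VEGF receptor that holds VEGF-A away from Kdr, was at 199.9 CPM in Ctrl and 101 CPM in cKO. Its Xist-only and Y-only values were 196 and 233 CPM against 115 and 107 CPM, without overlap, and the level in cKO was 1.98-fold lower (95% counting interval 1.76 to 2.22). Fli1, an ETS factor of endothelium and blood, was at 189 and 94.6 CPM, from 223 and 186 to 90.6 and 133 CPM by sex, 2.0-fold lower (1.78 to 2.25). The SoxF factor Sox7 was at 47.1 and 21.3 CPM, with 53.5 and 48.3 CPM in Ctrl and 23.7 and 24.6 CPM in cKO by sex. These 3 genes showed the largest differences of the list, each with groups that did not overlap.

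Other members of that list were closer. Ramp2, the receptor partner through which adrenomedullin acts, was at 823 and 701 CPM, and its values by sex overlapped (774 and 1009 CPM, 866 and 733 CPM). Icam2, an adhesion protein, was the only member higher in cKO, at 88.8 and 95.5 CPM. Lmo2 was at 388 and 239 CPM, but its cKO Y-only value of 327 CPM lay above the Ctrl Y-only value of 248 CPM, so the order was not the same in Xist-only and Y-only cells.

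The 8 genes of the gate are given as a description only, since every cell was chosen by them. All 8 were lower in cKO, with a median of −0.31. Kdr was at 424 and 246 CPM (438 and 477 against 270.0 and 283 by sex), and VE-cadherin, Cdh5, at 279 and 163 CPM (259 and 348 against 209 and 166). Pecam1 and Plvap were nearly level, at 60.7 and 59.1 CPM and at 261 and 245 CPM, and their values by sex overlapped.

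**Figure D1:**
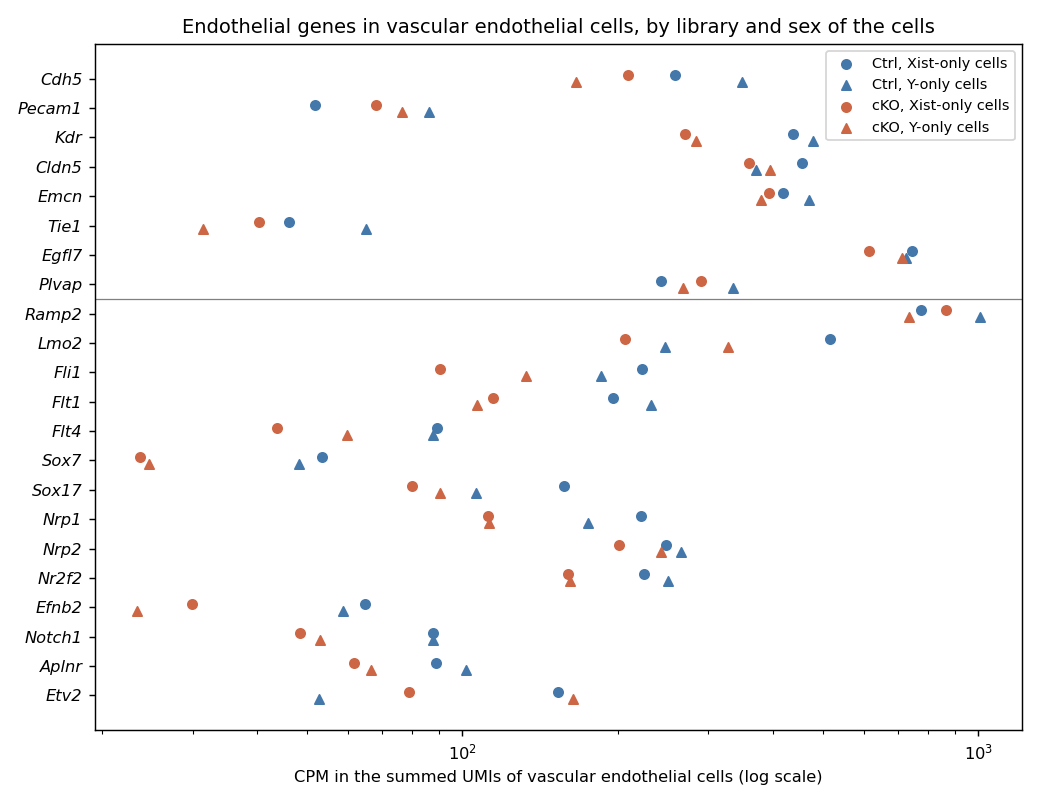
CPM (log axis) of the 8 gate genes, above the line, and 14 further endothelial genes in the summed UMIs of vascular endothelial cells, with 1 point for the Xist-only and 1 for the Y-only cells of each library. For Flt1, Sox7, Nrp1, Efnb2 and Notch1 both cKO points lie to the left of both Ctrl points, while those of Ramp2, Pecam1, Lmo2 and Etv2 overlap.

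The VEGF and Tie ligands and receptors had a lower median, −0.69, with 11 of 13 lower and 11 without overlap. Kdr and Tie1 of this list are gate genes, and without them the median was −0.69, with 9 of 11 lower and 9 without overlap. Among the receptors, Flt4, the receptor of VEGF-C on veins and lymphatics, was at 84.1 and 43.9 CPM, with 89.3 and 87.8 CPM in Ctrl and 43.7 and 59.8 CPM in cKO by sex (1.91-fold lower, 1.61 to 2.29). The co-receptor Nrp1 was at 192 and 111 CPM (1.73-fold lower, 1.54 to 1.93), and Plxnd1, the receptor of class 3 semaphorins, at 147 and 79.2 CPM (1.85-fold lower, 1.62 to 2.12). The angiopoietin receptor Tek was at 96.2 and 57.7 CPM, with no overlap by sex. All receptors of the list were lower in cKO, and the 2 members that were not, Vegfb (57.7 and 60.2 CPM) and Vegfc (11.5 and 13.5 CPM), are ligands. Vegfa, a ligand made mainly by surrounding cells, was low, at 19.2 and 9.53 CPM.

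Of 27 measured endothelial transcription factors 26 were lower in cKO (median −0.46) and 18 did not overlap by sex. Sox17, the arterial SoxF factor, was at 123 and 76.6 CPM (158 and 106 against 79.7 and 90.6 by sex). Ets1 was at 122 and 79.0 CPM and Ets2 at 99.8 and 61.9 CPM. Etv2, the earliest of these factors, was the 1 member higher in cKO, at 102 and 112 CPM, and Hhex, a homeobox factor of blood and endothelial progenitors, was level at 113 and 111 CPM. Etv2 differed between Xist-only and Y-only cells, with 154 CPM in Ctrl Xist-only, 52.7 in Ctrl Y-only, 78.8 in cKO Xist-only and 164 CPM in cKO Y-only cells, so no direction between the libraries holds for it.

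Arterial and venous genes did not differ in opposite directions. Of 15 measured arterial genes 12 were lower in cKO (median −0.46) and 9 did not overlap. Of 10 measured venous genes 9 were lower (median −0.63) and 8 did not overlap. The arterial ligand Efnb2 was at 59.5 and 27.1 CPM, with 64.8 and 58.8 CPM in Ctrl and 29.9 and 23.4 CPM in cKO by sex. It was 2.20-fold lower (1.77 to 2.74) and the only arterial gene beyond 2-fold. Its receptor Ephb4, a venous gene, was at 42.6 and 23.4 CPM (1.83-fold lower, 1.43 to 2.34). Notch1 was at 83.2 and 44.7 CPM (87.6 and 87.8 against 48.4 and 53.0 by sex). Both sides of the Efnb2 and Ephb4 pair were thus lower in cKO.

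The apelin receptor Aplnr, a gene of veins and plexus, was at 87.4 and 55.9 CPM, and Nr2f2 at 235 and 173 CPM, neither with overlap. Gja4, an arterial gap junction gene, went the other way, at 13.6 and 17.6 CPM, with values by sex that overlapped (13.6 and 17.6, 14.7 and 23.4). Dll4, the Notch ligand of arterial cells, was too low for a firm statement, at 8.88 CPM (30 UMIs) and 5.42 CPM (29 UMIs).

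The remaining lists of endothelial and signalling genes also had medians below 0. The median was −0.48 over 10 measured genes of tip cells, the leading cells of sprouts, with 10 of 10 lower. Apln, the ligand of Aplnr, was at 19.0 and 8.22 CPM and Igfbp3 at 86.2 and 49.5 CPM. Of 13 genes of the TGF-beta and BMP pathway 13 were lower (median −0.41). Bmpr2, a BMP receptor, was at 70.2 and 35.7 CPM (1.97-fold lower, 1.62 to 2.39), and Id1, a target of the pathway, at 228 and 203 CPM with overlap by sex. The basement membrane list had a median of −0.43 (9 of 10 lower), with the type IV collagen chain Col4a1 at 289.6 and 206 CPM, the linker Nid1 at 147 and 80.4 CPM and Sparc level at 336 and 346 CPM.

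Medians were −0.52 for guidance genes (10 of 12 lower), −0.35 for junction and adhesion genes (9 of 10, or −0.38 and 6 of 7 without the gate genes Cdh5, Cldn5 and Pecam1), −0.34 for genes known to respond to flow (7 of 8, with −0.02 in Xist-only and −0.70 in Y-only cells), −0.22 for the Notch pathway (10 of 12) and −0.48 for lymphatic genes (5 of 6). Outside the gate the guidance list had nearly the same median, −0.49, and the TGF-beta and BMP list had −0.34. The basement membrane, Notch, tip cell, junction, lymphatic and flow lists were at −0.19, −0.17, −0.12, −0.07, −0.02 and −0.01 there, against −0.09 for all genes. Klf2, a factor induced by shear stress, was at 149 and 103 CPM, and the Ctrl value came apart by sex (107 and 239 CPM) more than the cKO value (124 and 123 CPM). Lyve1, a hyaluronan receptor of lymphatic and some venous cells, was at 19.8 and 8.60 CPM, and its Ctrl value also came apart (10.2 and 38.6 CPM). Haemogenic genes were mostly near 0, with 4 of 12 measured (median −0.69). S phase genes had a median of 0.16 (3 of 12 lower), with 0.19 in Xist-only and 0.20 in Y-only cells. G2/M genes had −0.08 (8 of 13 lower), the same as all genes, but −0.38 in Xist-only and 0.01 in Y-only cells and −0.27 in endocardial cells. Top2a, the topoisomerase of dividing cells, was at 378 and 275 CPM and Rrm2, a subunit of ribonucleotide reductase, at 175 and 249 CPM.

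Endocardial cells, which the Npr3 and Nfatc1 threshold had set apart, also had medians below 0: −0.51 for the other endothelial genes, −0.46 for the VEGF and Tie list, −0.40 for the arterial and −0.25 for the venous list. The lower levels in cKO were thus seen in both kinds of endothelial cells. Outside the gate the medians were −0.03, −0.14, −0.18 and −0.42. The other endothelial genes were low there, with a sum of 86.3 CPM in Ctrl and 73.9 CPM in cKO against 3296 and 2404 CPM in vascular cells. The venous list was not, at 701 and 495 CPM against 907 and 669 CPM, nor was the arterial list, at 414 and 306 CPM against 657 and 422 CPM. The VEGF and Tie list without its gate genes was at 415 and 335 CPM against 1070.4 and 690.1 CPM. Thinned to 5000 UMIs per cell, a vascular cell held a median of 17 UMIs of the 20 other endothelial genes in Ctrl (range 0 to 42) and 14 in cKO (range 0 to 60), over 173 and 278 cells. By sex the medians were 17 (Xist-only) and 18.5 (Y-only) in Ctrl and 14 in both in cKO, and in endocardial cells 16 and 13. The middle 50% of cells spanned 13 to 23 UMIs in Ctrl and 9 to 18 in cKO, so single cells of the 2 libraries overlapped widely. Without the cells of highest doublet score the median over the 20 genes was −0.24, with −0.09 over all genes.

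**Figure D2:**
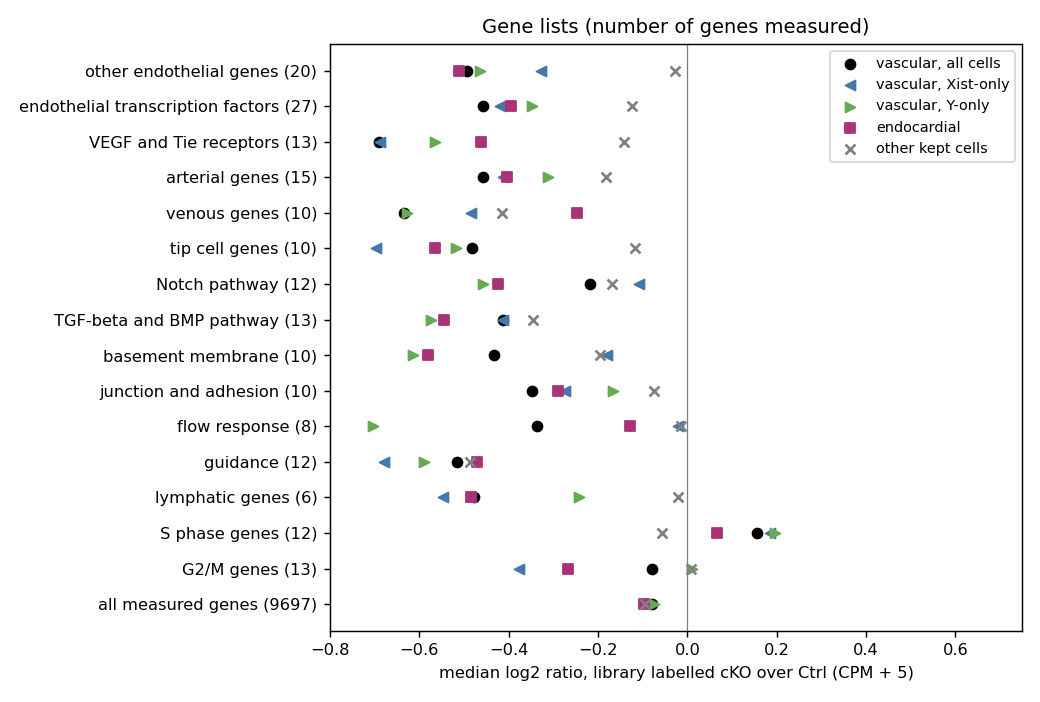
Median log2 ratio (cKO over Ctrl, CPM plus 5) of each gene list, with the number of measured genes in brackets, in vascular cells together and by sex, in endocardial cells and in the other kept cells. The endothelial lists lie left of the median of all measured genes (−0.08) in all vascular cells and in endocardial cells, and the S phase list lies to the right. In Xist-only cells the flow list (−0.02) does not.

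The ratio of the libraries also went with the length of the transcript. Over 9453 genes matched to the longest coding transcript of the mouse annotation, the median log2 ratio in vascular cells was 0.12 for the shortest transcripts (318 to 1931 bases), −0.02 and −0.17 in the bins between (1932 to 3062 and 3063 to 4544 bases) and −0.28 for the longest (4545 to 106824 bases), with like numbers of genes per bin. Endocardial cells (0.10 and −0.30 at the ends) and the other kept cells (0.10 and −0.30) had nearly the same values. Read against the median of the bin of each gene, the other endothelial genes stood at −0.43 (19 of 20 lower), the VEGF and Tie list at −0.41 (11 of 13, or 9 of 11 without its gate genes), the transcription factors at −0.32 (23 of 27), the venous list at −0.39 (8 of 10) and the arterial list at −0.24 (9 of 15). Length thus moved with the ratio in every kind of cell, and the medians of these lists lay below 0 when read against their bins. Over all genes as many lie below the median of their bin as above it, and the arterial list was near that. The bins are wide, with 4545 to 106824 bases in the longest, so they do not match genes closely by length. The part of length in any single value was not tested.

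**Figure D3:**
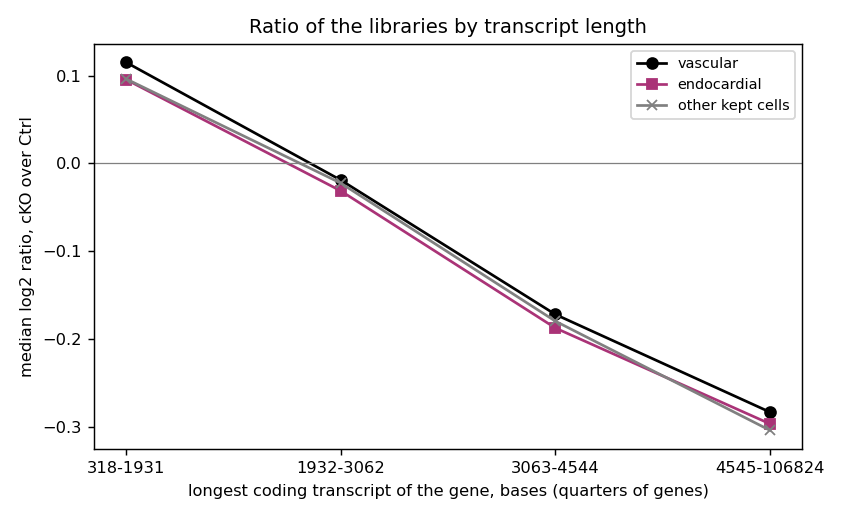
Median log2 ratio of the libraries (cKO over Ctrl) in bins of genes by transcript length in bases, for vascular, endocardial and other kept cells. All 3 lines fall together from about 0.1 in the shortest bin to about −0.3 in the longest.

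By the ratio with 5 CPM added, the genes beyond 2-fold held none of the 8 gate genes and none of the 20 other endothelial genes. Of the 15 higher in cKO 14 had the same sign in Xist-only and Y-only cells, and 8 passed 2-fold in both. Ubb, a ubiquitin gene, led at 105 CPM in Ctrl and 833 CPM in cKO. It was at 107 and 102 CPM in Ctrl and at 1267 and 329 CPM in cKO by sex, and outside the gate at 103 and 912 CPM. The histone genes Hist1h2ap (34.3 and 161 CPM) and Hist1h2ae (51.8 and 123 CPM) and the gene models Gm10076 (68.4 and 296 CPM) and Gm10260 (72.3 and 205 CPM) were also among the 15. Outside the gate their log2 ratios were 1.40, 0.71, 2.04 and 1.43, against 2.08, 1.17, 2.03 and 1.44 in vascular cells. Each of these 5 genes thus stood higher in cKO across the whole library. Histone and Gm genes have near-identical copies, among which counts cannot be assigned with certainty.

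Phgdh, which codes for the first enzyme of serine synthesis, was at 20.7 and 73.8 CPM in vascular cells (14.8 and 21.1 against 57.9 and 69.6 by sex) and at 53.3 and 141 CPM outside the gate. Dlk1, a non-canonical Notch ligand, was at 83.5 and 180.0 CPM. Il11ra1, an interleukin 11 receptor gene, was at 29.0 and 113 CPM, but almost absent only in Ctrl Xist-only cells (1.71 CPM, against 65.8 CPM in Ctrl Y-only and 130.5 and 107 CPM in cKO). The cardiomyocyte genes Myl7 (131 and 269 CPM) and Tnnc1 (24.9 and 57.2 CPM) were also among the 15. They moved with a list of 10 cardiomyocyte genes, 7 of them higher in cKO and none at 0, that summed to 561 CPM in Ctrl and 912 CPM in cKO in vascular cells and to 1995 and 3312 CPM outside the gate. By sex that sum was 132 and 93.0 CPM in Ctrl and 1346 and 402 CPM in cKO. The Ctrl sum over all vascular cells lay above both of its values by sex, so cells in neither group held more. The ratios by sex leave those cells out, and for Myl7 they were 4.05 and 2.26 against 1.01 over all vascular cells. The part of other cells' RNA in these values was not tested. Tbcb, a tubulin cofactor, Polr2l, an RNA polymerase subunit, and Crip1 had log2 ratios of 1.05, 1.05 and 1.03 in vascular cells and of 0.86, 0.96 and 1.04 outside the gate.

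Efnb2 was among the 14 genes lower in cKO, with a log2 ratio of −1.01 in vascular cells and −1.26 outside the gate. Arhgef15, a guanine nucleotide exchange factor of vessels, was at 52.4 and 22.8 CPM (59.1 and 51.8 against 19.5 and 30.8 by sex). Rasgrp3, a Ras exchange factor, was at 130.3 and 62.0 CPM (153 and 119 against 69.3 and 69.6). Hdac7, a histone deacetylase that endothelial cells need for intact vessels, was at 58.3 and 25.6 CPM (52.9 and 71.1 against 26.6 and 25.3). None of the 3 overlapped by sex. Outside the gate Arhgef15 was near 0 (0.541 and 0.428 CPM), and Rasgrp3 (11.2 and 7.79 CPM) and Hdac7 (16.8 and 11.7 CPM) had log2 ratios of −0.34 and −0.38. Ctnnd1 (p120 catenin, which holds cadherins at the membrane), the receptor phosphatase gene Ptprg, the Rac exchange factor gene Tiam1, Cd59a, which protects cells from complement, Fam102b and the gene model AY036118 had log2 ratios of −1.08, −1.11, −1.003, −1.67, −1.39 and −1.36. Outside the gate these 6 were −0.78, −0.70, −0.57, −0.54, −0.51 and −1.02.

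The 2 largest differences were of another kind. Pf4, platelet factor 4, was at 199 and 5.05 CPM, but 653 of its 671 UMIs in Ctrl came from 1 cell. That cell, with 23800 UMIs, also held 14 of the 18 Runx1 UMIs, 7 of the 7 Gata1 UMIs and 4 of the 5 Gfi1b UMIs of the vascular cells in Ctrl. Without the cell of most Pf4 UMIs in each library Pf4 was at 5.33 and 4.30 CPM. So 1 cell with genes of megakaryocytes and blood progenitors carried the value. Tpm3-rs7, a sequence related to the tropomyosin gene Tpm3, with which it may share reads, was at 277 and 9.53 CPM in vascular cells and at 163 and 6.82 CPM outside the gate.

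**Figure D4:**
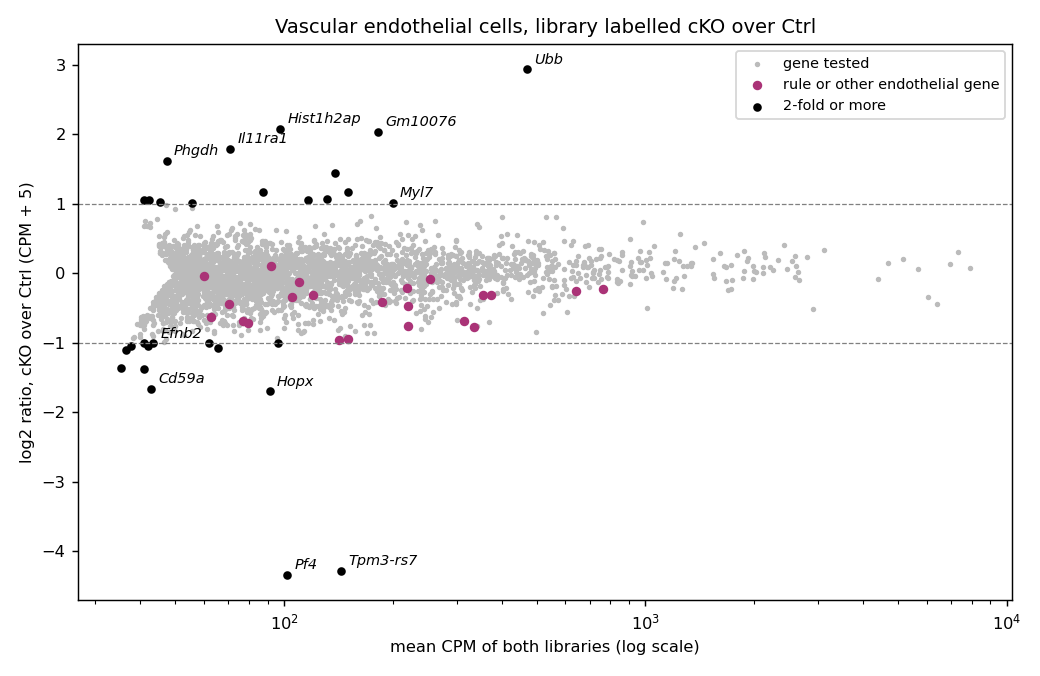
Log2 ratio (cKO over Ctrl, CPM plus 5) against the mean CPM of both libraries (log axis) for the 3036 genes that reached 50 CPM and 30 UMIs; dashed lines mark 2-fold. The gate and other endothelial genes lie mostly between 0 and −1, while Pf4, Tpm3-rs7 and Ubb lie far outside.

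Within each library, vascular cells were set beside endocardial cells, and genes were ranked by the smaller of the 2 log2 ratios. The genes of the gate, Npr3 and Nfatc1 chose the cells, so this contrast is a description. Of 3318 genes, 7 were at least 2-fold higher in vascular cells in both libraries (0.211%) and 44 at least 2-fold lower (1.33%). Lmo2, a cofactor of early blood and endothelial regulators, ranked first among the higher genes. It was at 388 CPM in vascular and 135 CPM in endocardial cells in Ctrl, and at 239 and 73.5 CPM in cKO. Etv2 was among the 10 highest but under 2-fold in Ctrl, at 102 and 51.6 CPM in Ctrl and at 112 and 36.7 CPM in cKO. Kcne3, a potassium channel subunit that marks tip cells, was at 96.2 and 41.7 CPM and at 72.3 and 22.7 CPM. Tmem255a, Gadd45g, Hopx, Bok, Mmrn1 and Clec1b were also among the 10 highest. Myl7 was too, at 131 and 19.4 CPM in Ctrl, and cells with at least 20 cardiomyocyte UMIs made up 4.57% of vascular and 1.54% of endocardial cells there. In cKO it was at 269 and 124 CPM, with such cells at 5.30% and 6.77%.

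Among the lower genes Cdkn1c, an inhibitor of cyclin-dependent kinases, was at 501 CPM in vascular and 3432 CPM in endocardial cells in Ctrl and at 689 and 3170.2 CPM in cKO. Fibronectin, Fn1, was at 301 and 1058 CPM and at 188 and 687 CPM. Sdpr, Pdlim3, Tbx20, Mical2, Ccdc80, Adgrg6, Fam198b and Rnd2 completed the 10 lowest. Cells with at least 10 mesenchyme UMIs made up 12.6% of vascular and 28.7% of endocardial cells in Ctrl and 13.8% and 24.1% in cKO. Of 10 mesenchyme genes 7 were lower in vascular cells in both libraries. How far mesenchyme RNA entered this contrast was not tested. All 8 endocardial genes that the gate had not used (Tbx20 and Gata4 among them) were lower in vascular cells in both libraries, against 38.2% of 10714 genes, and the summed level was 215 and 726 CPM in Ctrl and 182 and 525 CPM in cKO. The gate thus parted these cells by more genes than its own pair.

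Flow and arterial genes were also lower in vascular than in endocardial cells. All 8 flow genes were lower in both libraries. Klf2 was at 149 and 212 CPM in Ctrl and at 103 and 267 CPM in cKO, and Nos3, endothelial nitric oxide synthase, at 24.6 and 40.3 CPM and at 19.4 and 34.0 CPM. Of 19 arterial genes 13 were lower in both libraries, such as Efnb2 (59.5 and 114 CPM, 27.1 and 50.4 CPM) and Gja4 (13.6 and 50.8 CPM, 17.6 and 49.2 CPM). Sox17 was an exception, higher in vascular cells at 123 and 55.2 CPM and at 76.6 and 43.0 CPM. Venous genes leaned the other way, with 6 of 11 higher in both libraries, against 26% of all genes. Flt4 was at 84.1 and 45.8 CPM in Ctrl and at 43.9 and 22.7 CPM in cKO, and Aplnr at 87.4 and 34.8 CPM and at 55.9 and 31.7 CPM.

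Vascular cells were then placed by their own arterial and venous UMIs. Each cell was thinned to 5000 UMIs, and a cell was put on the arterial or venous side when one list led the other by at least 2 UMIs. This is a range and not a pair of cell types: 84.4% of cells in Ctrl and 76.6% in cKO held UMIs of both lists, and 45.1% and 59.4% had a gap of 1 to 3 UMIs, close to the line. In Ctrl 45 of 173 cells lay on the arterial side (26%, interval 19.6 to 33.2), 85 on the venous side (49.1%) and 43 between. In cKO 52 of 278 lay on the arterial side (18.7%, 14.3 to 23.8), 133 on the venous side (47.8%) and 93 between. The arterial difference was −7.31 percentage points with an interval of −15.8 to 0.84, within counting error. It was below 0 in each of 20 further random thinnings (mean −6.48, from −12.4 to −2.04). These draws reuse the same cells, so they show the spread from thinning and not whether the share differs. Xist-only cells had 31.5% in Ctrl and 20% in cKO, while Y-only cells had 17.7% and 18.9%. Arterial UMIs per thinned cell had a median of 3 in Ctrl and 2 in cKO, and venous UMIs 4 and 3, so both sums were lower in cKO.

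The sides differed in genes that had not placed the cells. Of 3400 genes, list members left out, 14 were at least 2-fold higher on the arterial side in both libraries (0.412%) and 6 at least 2-fold lower (0.176%). Cdkn1c was at 1196 CPM on the arterial and 212 CPM on the venous side in Ctrl and at 1836 and 364 CPM in cKO. Fn1 was at 601 and 182 CPM and at 426 and 119.7 CPM. Sox9, a factor of cushion and skeletal mesenchyme, was at 93.7 and 7.84 CPM and at 61.7 and 17.9 CPM. Pdlim3, Pdlim1, Rnd2, Hand2, Igf2r, Tmem108 and Emb completed the 10 highest. Cdkn1c, Fn1, Pdlim3 and Rnd2 also led the genes of endocardial over vascular cells.

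The 8 endocardial genes outside the gate were all higher on the arterial side in both libraries, against 28.4% of 8872 genes, and summed to 368 CPM on the arterial and 157 CPM on the venous side in Ctrl and to 344 and 130 CPM in cKO. Tbx20 was at 41.5 and 1.81 CPM and at 39.5 and 5.17 CPM. Exactly 1 Npr3 or Nfatc1 UMI was found in 24.4% of arterial-side and 40.0% of venous-side cells in Ctrl, and in 36.5% and 34.6% in cKO, so the UMIs that the gate allowed did not follow this order in Ctrl. Mixed cells were 20% and 8.24% of the 2 sides in Ctrl and 17.3% and 15.0% in cKO. How many arterial-side cells are endocardial cells with few Npr3 and Nfatc1 UMIs was not tested.

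On the venous side Cldn5, a tight junction protein of the gate, was higher, at 249 CPM on the arterial and 478 CPM on the venous side in Ctrl and at 196 and 383 CPM in cKO. Mmrn1, a multimerin of platelets and lymphatic endothelium, was at 22.8 and 88.1 CPM and at 11.1 and 42.1 CPM. Myl7, Myl4, Acta2, Flrt2, Zfp503, Tpd52 and Nts were also higher there. RNA of other cell types differed between the sides too. The cardiomyocyte list summed to 216 CPM on the arterial and 266 CPM on the venous side in Ctrl and to 98.7 and 432 CPM in cKO. The erythroid list summed to 12.1 and 0 CPM in Ctrl and to 216 and 2760 CPM in cKO. How far such RNA entered the contrast of the sides was not tested. Of 13 G2/M genes 12 were lower on the arterial side in both libraries, against 27.1% of all genes. Mki67, a marker of dividing cells, was at 121 and 173 CPM in Ctrl and at 92.5 and 166 CPM in cKO. S phase genes did not share this, with 7 of 12 higher and 0 lower on the arterial side in both libraries.

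The libraries were then compared within each side. Over all genes the median log2 ratio was −0.047 on the arterial side (54.1% of 5616 lower) and −0.061 on the venous side (56.8% of 8089). On the arterial side the arterial list had a median log2 ratio of −0.85 (10 of 12 lower) and the venous list −0.43 (7 of 8). On the venous side the venous list had −0.71 (8 of 9) and the arterial list −0.18 (7 of 11). Those lists placed the cells, so the pair of values is a description. The VEGF and Tie list without its gate genes had −0.64 (6 of 8) and −0.69 (8 of 10) on the arterial and venous sides, and the other endothelial genes −0.20 (13 of 19) and −0.49 (19 of 20).

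The vascular cells were also split by their Etv2 UMIs, a split made after the values had been seen. At least 3 Etv2 UMIs were found in 39 of 175 vascular cells in Ctrl (22.3%, 16.4 to 29.2) and in 49 of 283 in cKO (17.3%, 13.1 to 22.2), and none in 100 and 171. Endocardial cells with 3 or more made up 12.8% and 7.52%, and cells outside the gate 0.814% and 0.385%. The order of Xist-only and Y-only cells was not the same in the 2 libraries, at 33.3% of Xist-only and 11.1% of Y-only cells in Ctrl and 10.2% and 24.0% in cKO. Cells with 3 or more were deeper, at medians of 20124 and 19855 UMIs against 15051 and 14724 in cells with none, so depth moved with the split. The Etv2 cells were on both sides, at 28.9% of arterial-side and 18.8% of venous-side cells in Ctrl and at 19.2% and 18.8% in cKO.

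Of 3387 genes, 19 were at least 2-fold higher in these Etv2-high cells than in cells with none in both libraries (0.561%) and 47 at least 2-fold lower (1.39%). RNA of other cell types differed with this split. The cardiomyocyte list summed to 1410 CPM in Etv2-high cells and 331 CPM in cells with none in Ctrl and to 660.0 and 1299 CPM in cKO, and the erythroid list to 1.19 and 4.68 CPM in Ctrl and 139.9 and 4529 CPM in cKO. Few cells carried most of the erythroid sum of cKO: 95% of its vascular cells held at most 7 haemoglobin UMIs, and 2 held over 100. The part of these RNAs in the contrast was not tested. Of 25 endothelial transcription factors, Etv2 left out, 11 were higher in both libraries and 12 lower, against 31.0% and 31.8% of 9162 genes. Among them Tal1 was at 179.6 CPM in Etv2-high cells and 35.6 CPM in cells with none in Ctrl, and at 126 and 23.9 CPM in cKO. Lmo2 was at 799 and 249 CPM and at 559 and 147 CPM. Hhex was at 196 and 70.1 CPM and at 225 and 62.8 CPM. Ets1 went the other way, at 73.7 and 139 CPM in Ctrl and at 42.6 and 96.4 CPM in cKO. So did Ets2 (78.5 and 105 CPM, 43.5 and 67.5 CPM). At the top of the ranking were Hopx, an atypical homeodomain protein (427 and 25.7 CPM, 146 and 8.40 CPM), and C1ql2 (51.1 and 0.584 CPM in Ctrl, and 43.5 CPM against no UMI in cKO).

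Hpgd, which codes for a prostaglandin-degrading enzyme, was at 126 and 11.1 CPM in Ctrl and at 98.3 and 9.41 CPM in cKO. The growth factor gene Pdgfa was at 88.0 and 22.2 CPM and at 51.1 and 13.4 CPM. Gadd45g, Pyy, Cxxc4 and Tiam1 were also among the 10 highest. Hopx and Tiam1 also belonged to the genes at least 2-fold lower in cKO.

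Of 7 junction and adhesion genes outside the gate list 3 were lower in Etv2-high cells in both libraries and 2 higher, against 31.8% and 31.0% of all genes. Pecam1 was at 7.13 CPM against 89.4 CPM in cells with none in Ctrl and at 6.62 against 87.0 CPM in cKO. Cdh5 was at 101 and 354 CPM and at 25.5 and 227 CPM, and Tie1 at 16.6 and 72.5 CPM and at 3.78 and 42.3 CPM. These 3 are gate genes, which would favour cells that hold them. The gate genes Kdr (442 and 432 CPM, 299 and 237 CPM), Cldn5 (451 and 342, 349.9 and 288) and Egfl7 (821 and 656, 681 and 549) were not lower. The other gate genes were, with Emcn at 296 and 463 CPM in Ctrl and 228 and 398 CPM in cKO, and Plvap at 131 and 334 CPM and at 134 and 310.5 CPM.

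Outside the gate genes, Clec14a, a C-type lectin of endothelium, had the lowest ratio, at 5.95 and 101 CPM in Ctrl and at 3.78 and 81.3 CPM in cKO. Aplnr was at 29.7 and 114 CPM and at 14.2 and 75.3 CPM, and Calcrl, the receptor that pairs with Ramp2, at 40.4 and 185 CPM and at 26.5 and 112 CPM. The phosphatase of VE-cadherin, Ptprb, was at 2.38 and 60.2 CPM and at 5.67 and 37.0 CPM. Pcdh17, Sgk1, Ctla2a, Prkcdbp and Anxa2 were also among the 10 lowest. All 10 basement membrane genes were lower in both libraries, against 31.8% of 9162 genes, with Col4a1 at 132 and 386 CPM and at 84.2 and 268 CPM. So were 7 of 8 flow genes, such as Klf2 (84.4 and 167 CPM, 29.3 and 135 CPM), and 8 of 9 tip cell genes. Of 13 G2/M genes 9 were higher in both libraries, against 31.0% of all genes, and Top2a was at 451 and 341 CPM and at 369 and 221 CPM. With the split made on cells thinned to 5000 UMIs (1 or more against 0 Etv2 UMIs) 10 genes were at least 2-fold higher in both libraries, and without mixed cells 30.

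**Figure D5:**
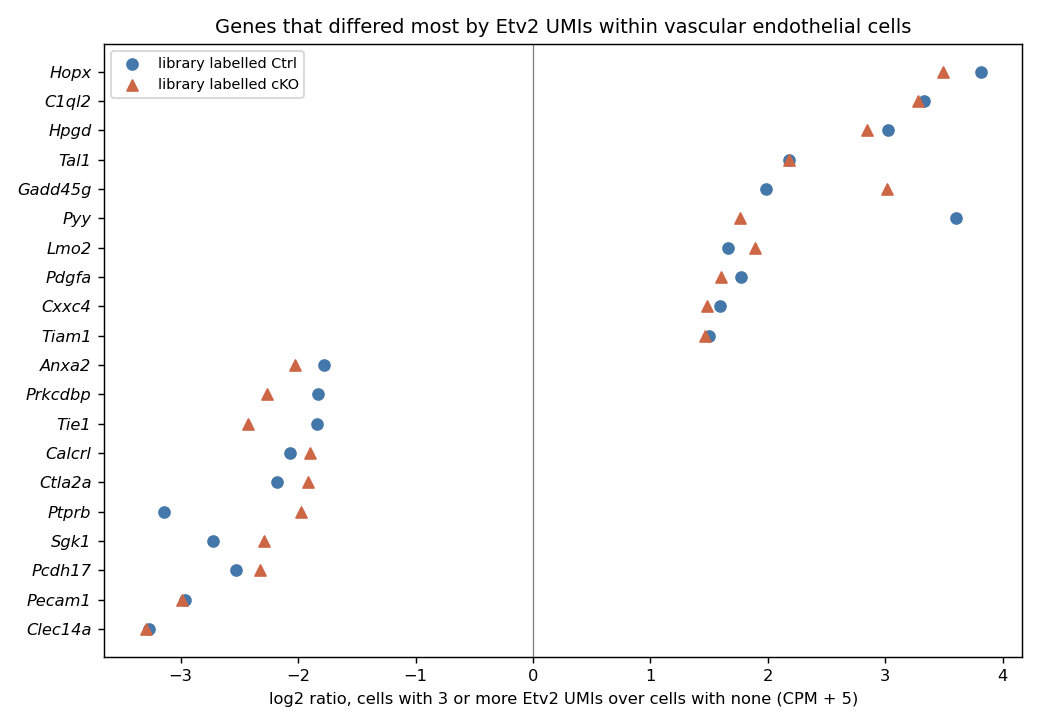
Log2 ratio (CPM plus 5) of vascular cells with 3 or more Etv2 UMIs over vascular cells with none, for the 10 highest and 10 lowest genes by the smaller ratio of both libraries, Ctrl as circles and cKO as triangles. Both libraries lie on the same side of 0 for every gene shown, from about 3.81 for Hopx in Ctrl to −3.30 for Clec14a in cKO.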

How the data were processed

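Sorted GFP-positive cells were profiled by droplet-based 3′ RNA sequencing (10x Genomics, v2 kit per the labels). The authors aligned reads to mm10 and counted UMIs with Cell Ranger (3.1.0 per the submitters' processing notes). The deposited values are raw UMI counts of 27998 genes per cell barcode, 7418 barcodes in Ctrl and 10281 in cKO. Here cells were kept with at least 1000 genes and at most 10% mitochondrial UMIs, which left out 411 and 508. Median depth of vascular cells was 17381 and 15789 UMIs, with 4135 and 3765 genes, and 3 counts of their sums came to 0.888 and 0.561 CPM.

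Groups follow the genotype labels. UMIs were summed per library and compared as log2 of CPM plus 5, with exact Poisson, conditional and Clopper-Pearson intervals at 95% for counting error (numpy 2.4.6, scipy 1.17.1, pandas 2.3.3, Python 3.11.15). Intervals of differences of shares are approximate. Transcript lengths came from the GENCODE transcripts of an earlier mouse build, used for lengths only. The computations were tested on simulated data. With 1 library per genotype no model was fitted and the study's test over single cells was not run. The members and all 27 gene lists were chosen with earlier results of these data known. Genes named were the gate genes, Tbx1, the 2 highest and 2 most different of each list (of which the text gives a part), the 12 highest and 12 lowest ratios with 1 direction in both sexes (mitochondrial, ribosomal, haemoglobin and sex-linked genes left out), and the 10 at each end of the contrasts within libraries. A gene that this rule names is not reported here. Hopx, Ptn and the genes of the Etv2 contrast were named after their values were seen.

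Doublets were not removed. Scrublet (scanpy 1.11.5) set a threshold that called 0% of cells in Ctrl and 8.63% in cKO, and removal of the highest scores at 0.8% per 1000 cells was an alternative. The others changed the gate, the endocardial limit, the cell filter, the scaling, the depth, the sex of the cells, the added CPM and the filter on low values. Removal of mixed cells and the alternatives for the Etv2 split, the other endothelial genes and the VEGF and Tie list were chosen after seeing the data.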

Additional observations from a re-analysis of the deposited data

Results flagged for a closer look

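For a pair of the genes at least 2-fold apart between the libraries, the log2 ratio had unlike signs in the Xist-only and Y-only cells of the pools, and the difference between these cells, in which sex and embryo cannot be told apart, was not tested. Hopx was at 231 CPM in Ctrl Xist-only, 36.0 in Ctrl Y-only, 23.7 in cKO Xist-only and 59.8 CPM in cKO Y-only vascular cells. Its log2 ratio was −3.04 in Xist-only and 0.66 in Y-only cells, against −1.70 in all vascular cells. The shares of Etv2-high cells were 33.3%, 11.1%, 10.2% and 24.0% in the same 4 groups of cells, the same order from highest to lowest. Ptn, which codes for the growth factor pleiotrophin, was at 92.7, 67.6, 89.2 and 145 CPM in the same 4 sums, with log2 ratios of −0.052 in Xist-only cells, which is nearly level, and 1.05 in Y-only cells, against 1.17 in all vascular cells. The cKO value over all vascular cells, 209.7 CPM, lay above both values by sex, so cells in neither group held more.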

How the results depend on the processing

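The medians of the 4 lists below and the 24 named genes past 2-fold kept their sign under the alternatives run. Those 24 genes were chosen for 1 direction in both sexes, so the Xist-only and Y-only alternatives could not change their sign. Pf4 is among them, nearly level in Xist-only cells (−0.011). Of the other genes past 2-fold, Hopx (−1.70) came to 0.66 in Y-only cells and Ptn (1.17) to −0.052 in Xist-only cells. The vascular share (main value 0.40 points) changed sign in Xist-only cells and the arterial-side share (−7.31 points) in Y-only cells, with the values given below. Tbx1 (0.42) came to −0.11 without mixed cells, −0.44 without high Scrublet scores, −0.16 when thinned and −0.007 with the gate at 6 genes. No paired analysis was possible because each genotype has 1 library, and no replicate could be left out. Under the alternatives 58 values of the main results stayed close and 37 moved in size, as follows, and the cause was not tested. A share was close inside the interval of the main value, and a count of genes within a fixed factor of the main count. A median was close when it differed by no more than the standard deviation of its Xist-only and Y-only values. Xist-only cells gave 23 genes at least 2-fold higher and 43 lower in cKO, medians of −0.48 (venous) and −0.33 (other endothelial), and a vascular share difference of −0.19 points. Y-only cells gave 23 and 32 genes, medians of −0.57 (arterial) and −0.62 (VEGF and Tie), a share difference of 1.02 points and an arterial-side difference of 1.21 points. Adding 1 CPM gave −0.62 (arterial) and −0.78 (VEGF and Tie). Adding 20 CPM gave 7 and 5 genes and −0.26, −0.44, −0.38 and −0.43 for the arterial, venous, other endothelial and VEGF and Tie lists. Without the filter on low values 36 and 45 genes passed. Thinning to 5000 UMIs gave 35 lower genes, −0.60, −0.48, −0.38 and −0.76 for the same 4 lists, and 10 genes higher in Etv2-high cells. Scaling without mitochondrial, ribosomal and haemoglobin genes gave 23 lower genes. The gate at 6 genes and 20 UMIs gave −0.63 (VEGF and Tie) and 25 genes lower in vascular than endocardial cells, and Npr3 plus Nfatc1 at 0 gave −0.46 (venous). Removing high Scrublet scores gave −0.24 (other endothelial), −0.52 (VEGF and Tie) and 75 genes lower than in endocardial cells. Without mixed cells the values were −0.33, −0.55 and 30 genes higher in Etv2-high cells. The medians of these 4 lists stayed below the all-gene median, −0.05 to −0.10 over the alternatives. Of 24 named genes past 2-fold, between 10 and 24 stayed past it. Values under 30 UMIs are limited by depth.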
